A study of Oryza sativa with 18 samples.

Results

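R-loops are RNA-DNA hybrids that leave the opposite DNA strand single. They form where a new transcript pairs with its template behind the RNA polymerase, and in plants they are known from promoters, gene bodies and repeats. RNase H removes the RNA of such a hybrid. In ISRH-seq, the assay used here, RNase H and DNA polymerase I act together on sonicated genomic DNA, and the biotin-labelled strand made in this way is captured on streptavidin and sequenced as single-stranded DNA.

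The R-loop maps described here come from rice (Oryza sativa) seedlings that had received no salt according to their titles. They were chosen by title and make up 6 of the 18 libraries of the series. A pair is titled CK(salt) and served as the control of a salt experiment (2 libraries), and the others belong to a series of input amounts, with 2 libraries made from 5 µg of DNA and 2 made from 3 µg. All 6 are labelled wild type, and no other agent is named for the input libraries. The treatment label of the CK(salt) libraries reads 3 days of salt, as it does for the libraries titled salt, whereas the peak names in their files hold the letters ck and those of the salt libraries the word salt. The titles were followed, and the treatment label was left unresolved. The growth protocol, shared by all libraries, names pots of soil or, for the treatment with 150 mM NaCl, hydroponics, so the medium of each library is not known. The sources used here do not give the input amount of the CK(salt) libraries, the age of the seedlings, or whether replicates came from separate plants. P-values therefore measure the spread between libraries, which may be technical, and with 2 libraries against 4 the smallest two-sided exact permutation p is 0.133.

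Experiment and library preparation cannot be told apart here. In the library codes of the peak names, each CK(salt) library stands next to the salt library of the same replicate number, and both are away from the input libraries. Among these, the replicates 1 of 5 and 3 µg are neighbours, and so are the replicates 2. Whether neighbouring codes mark a shared preparation is not stated. The names of the 4 input lists carry the word uniq, that of CK(salt) replicate 1 carries merge, and that of CK(salt) replicate 2 carries neither. What these words mean is not stated either. The replicate numbers inside the peak names of the 3 µg libraries are the reverse of those in the titles, and the titles were used.

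The CK(salt) lists held 51710 and 40592 peaks in replicates 1 and 2. The 5 µg lists held 48672 and 58178, and the 3 µg lists 48308 and 58704. The CK(salt) lists thus lay inside the input range in replicate 1 and below it in replicate 2. Background coverage, a measure of depth read from the fold and p-value of each summit, was 8.6 and 4.3 fragments per position in CK(salt), 5.07 and 7.09 at 5 µg and 6.03 and 6.66 at 3 µg. The deepest and the shallowest of the 6 libraries were therefore both CK(salt). Peak number was 46151 ± 7862 in CK(salt) (SD, n = 2) and 53466 ± 5751 in the input libraries (SD, n = 4), a difference of -0.22 on the log2 scale (exact permutation p = 0.4, adjusted p = 0.533). Covered length was 22.5 ± 4.93 Mb and 25.1 ± 3.54 Mb, respectively (exact permutation p = 0.533, adjusted p = 0.533). By replicate number, CK(salt) had 1.07 times the peaks of the input libraries in replicate 1 and 0.695 times in replicate 2, so the sign of the difference depended on the replicate. Without CK(salt) replicate 2 the log2 difference in covered length was 0.060, in place of -0.16.

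**Figure D1:**
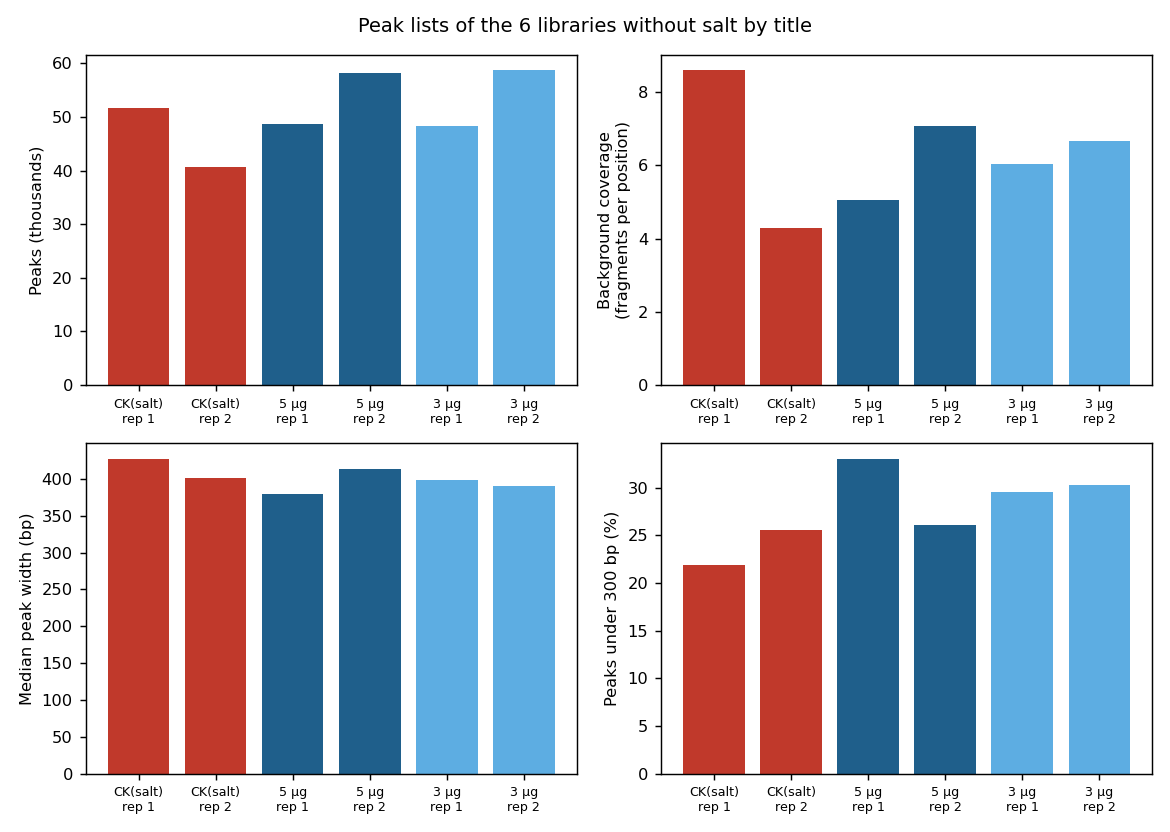
Peaks per list, background coverage, median peak width and the share of peaks under 300 bp in the 2 CK(salt) libraries (red), the 2 libraries from 5 µg (dark blue) and the 2 from 3 µg (light blue), 1 bar per library. The CK(salt) libraries hold both the highest and the lowest background coverage, and both have a lower share of narrow peaks than every input library.

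Both CK(salt) lists held a lower share of narrow peaks than every input list, while the median widths overlapped. The median width was 427 and 401 bp in CK(salt), 379 and 413 bp at 5 µg and 398 and 390 bp at 3 µg. The mean difference of 19 bp did not exceed the spread (exact permutation p = 0.267, adjusted p = 0.533). With lists of equal length, taking the 40592 best-scored peaks of each, the difference turned to -11.5 bp. Peaks under 300 bp made up 21.8% and 25.6% of the CK(salt) lists, against 33.0% and 26.1% at 5 µg and 29.5% and 30.2% at 3 µg, a difference that was not tested. The narrowest peak measured 229 and 223 bp in CK(salt) and 195 to 214 bp in the input lists. Broad peaks of 1200 bp or more were rare in every list, at 2.05% and 1.14% in CK(salt) and 1.01% to 2.21% in the input libraries.

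Most peaks of every list lay in R-loop regions common to both experiments, from 54.1% in 5 µg replicate 2 to 77.4% in CK(salt) replicate 2. The 6 lists merged into 72074 regions, joining peaks that shared at least 1 bp. Of these, 30299 (42.0%) had a peak in all 6 lists, and they covered 22.9 Mb. Both CK(salt) lists held 36389 regions, and the shared ones were 83.3% of these. All 4 input lists held 36600, and the shared ones were 82.8% of these. Regions restricted to a single experiment and held by each of its lists were few. Both CK(salt) lists and no input list held a peak in 279 regions (0.387%), and the 4 input lists and no CK(salt) list in 1738 (2.41%). These are called CK(salt)-only and input-only below. The other 39758 regions were held by part of the lists of an experiment, and 9252 of them came from a single input list and 2870 from a single CK(salt) list. A further 5003 had a peak in 2 input lists and 2366 in 3, with none in CK(salt). Many regions outside the restricted classes were thus also found in a single experiment.

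The counts of the restricted classes depended on the length of the lists and on the libraries. With lists of equal length, 817 regions were CK(salt)-only and 920 input-only. Without CK(salt) replicate 1 the counts were 941 and 5570, and without CK(salt) replicate 2 they were 2509 each. Leaving out any of the 4 input libraries gave 344 to 492 CK(salt)-only and 2146 to 2622 input-only regions.

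**Figure D2:**
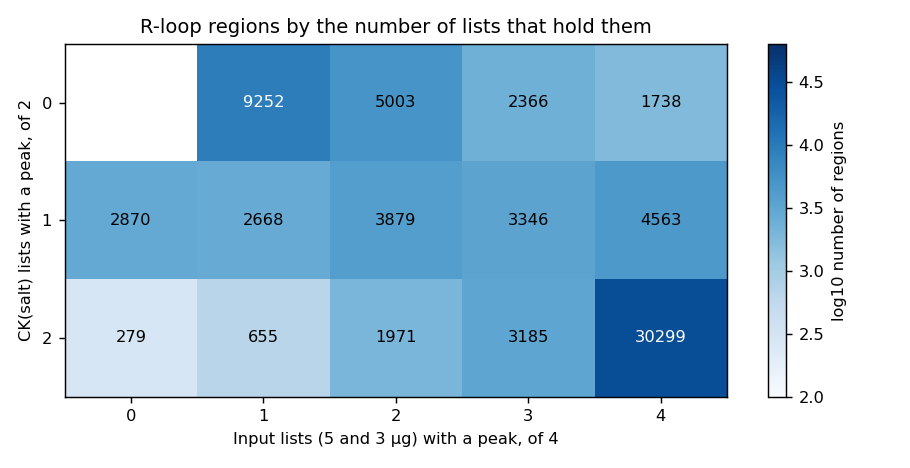
Number of merged regions by how many of the 4 input lists (horizontal) and of the 2 CK(salt) lists (vertical) hold a peak; colour gives log10 of the number. The corner with all 6 lists holds 30299 regions, and the corners with all lists of a single experiment hold 279 and 1738.

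Some libraries shared more bases across the experiments than the CK(salt) pair did. The Jaccard index, the bases in both lists over the bases in either, was 0.596 for the CK(salt) pair. CK(salt) replicate 1 had a higher index with replicate 2 at 5 µg (0.650) and at 3 µg (0.631) than with its own replicate. CK(salt) replicate 2 was closest to its own replicate, and had 0.592 with replicate 1 at 3 µg, 0.572 with replicate 1 at 5 µg, and 0.538 and 0.524 with the deeper replicates 2. Over the 8 pairs that cross the experiments the index ran from 0.524 to 0.650 with a mean of 0.582, and over the 6 pairs of input libraries from 0.575 to 0.711 with a mean of 0.620. The highest input values, 0.679 and 0.711, belonged to the pairs with neighbouring library codes. With lists of equal length the CK(salt) pair had 0.617, and the means were 0.592 across and 0.632 within the input libraries. In 26782 regions made of exactly 1 peak in every list, summits of CK(salt) and input libraries lay a median of 19 to 28 bp apart, compared with 22 bp within CK(salt) and 17 to 25 bp within the input libraries.

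Sharing rose steeply with peak width. In CK(salt) replicate 1, 20.4% of the peaks under 300 bp lay in a region of all 6 lists, against 48.2% from 300 to under 400 bp, 73.2% from 400 to under 600 bp, 89.4% from 600 to under 1200 bp and 98.5% at 1200 bp or more. In CK(salt) replicate 2 the shares went from 51.8% in the narrowest to 100% of its 461 broadest peaks. In the input lists they went from 14.3% to 34.9% in the narrowest class and from 97.5% to 99.4% in the broadest. The order of the 5 width classes was the same in each of the 6 lists. The share rose with score as well, from 13.8% in the lowest score decile to 99.4% in the highest in CK(salt) replicate 1. In CK(salt) replicate 2 it rose from 37.8% to 98.9%. Width and score were not separated, and joining peaks at 1 bp of overlap favours wide peaks. None of the 1062 and 461 broadest CK(salt) peaks lacked a partner in all input lists, and 1 of 490 and 1 of 1283 at 5 µg, 0 of 546 and 0 of 978 at 3 µg lacked a partner in both CK(salt) lists. Narrow peaks did so more often, with 14.3% and 6.10% of the CK(salt) peaks under 300 bp and 29.0% to 42.5% of the input peaks of that width. A peak had to miss 4 lists in the first case and 2 in the second, so these shares do not compare the experiments with each other.

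**Figure D3:**
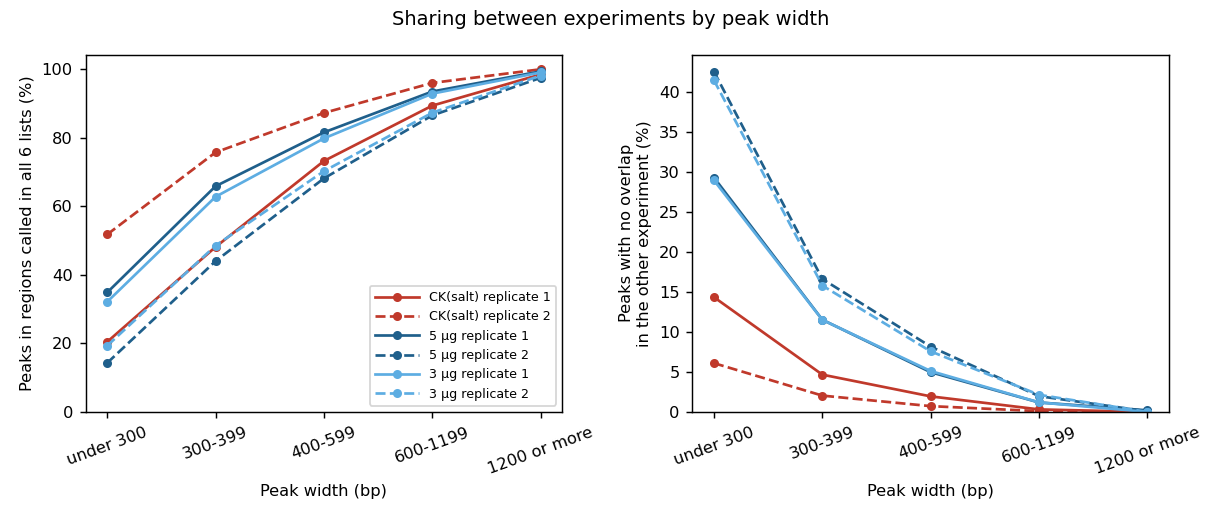
Share of peaks that lie in a region called in all 6 lists (left) and share without an overlapping peak in any list of the other experiment (right), by peak width, 1 line per library (solid, replicate 1; dashed, replicate 2). The left share rises and the right share falls with width in every list, to 0% to 0.204% without a partner at 1200 bp or more.

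The restricted regions ranked lower in score than the shared ones, as did the mixed regions held by part of the lists. Within each list, peaks were ranked by the deposited q-value of their summit. Peaks in regions of all 6 lists had median percentiles of 59.4 to 72.0. The CK(salt)-only peaks had median percentiles of 19.7 and 17.7, and median widths of 294 and 270 bp, against 532 and 447 bp for the shared ones in the same lists. The input-only peaks had higher median percentiles, of 31.1 to 34.5. Their median widths were 279 to 309 bp, against 462 to 551 bp for the shared ones. The input-only rule asks for presence in more lists, and absence from fewer, than the CK(salt)-only rule does. The higher percentiles can therefore not be read as a trait of the input-only class. Peaks of mixed regions had median percentiles of 21.6 to 26.2 and median widths of 267 to 314 bp. As whole regions, the median width was 694 bp in the shared, 339 bp in the CK(salt)-only, 398 bp in the input-only and 335 bp in the mixed class. Region widths grow with the number of lists merged, which is why the widths of single peaks are given first. A share of 18.6% of the CK(salt)-only and 18.2% of the input-only regions lay within 1 kb of a shared region, and mixed regions did so at 18.5%.

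Shared regions were ranked by their lowest score percentile over the lists compared. High scores of the highest-ranked regions in those lists therefore follow from the choice and are not a result. The first, on chromosome 11 from 16543392 to 16544622, covered 1075 and 1029 bp in CK(salt), 1101 and 1110 bp at 5 µg, and 1074 and 1005 bp at 3 µg. The same place had a peak in the library titled RNaseH, and so did the second, on chromosome 1 from 33520473 to 33522413, and the fourth, on chromosome 12 from 8530969 to 8533288. The third, on chromosome 10 from 8053296 to 8054308, lay 0.146 Mb from the centromere, had no RNaseH peak and reached folds over the local background of 19.7 and 17.6 in CK(salt). A fold is the authors' value for its own list. Of the first 10 shared regions, 4 had a peak in the RNaseH library, compared with 84 of all 30299 (0.277%). All 10 had a peak in each of the 9 other input lists and in both salt lists.

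The strongest CK(salt)-only regions were of medium rank. That with the highest rank, on chromosome 6 from 25687661 to 25688060, reached a fold of 7.28 in replicate 1 and 7.48 in replicate 2, and at least the 73.5th percentile in both lists. It had a peak in 1 of the 9 other input lists and in neither salt list. The second, spanning 25429029 to 25429448 on chromosome 2, reached 6.73 and 7.16. The next lay on chromosome 5 from 7310892 to 7311385, at 6.24 and 6.22, and the fourth on chromosome 7 from 10464296 to 10464572, at 6.98 and 6.99. Each of these 3 had a peak in 2 of the other input lists. Over the first 10 the percentile fell to 46.2.

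The strongest input-only region lay on chromosome 12 from 13403659 to 13403885. It ranked at the 90.1th percentile or higher in all 4 input lists, with folds of 8.98 and 11.2 at 5 µg, and both salt lists held a peak there although neither CK(salt) list did. The third, on chromosome 12 from 21960262 to 21960507, also had a peak in both salt lists and in the RNaseH library, and its folds were 9.81 and 8.07 at 5 µg. The second, on chromosome 3 from 32048124 to 32048495 (folds of 10.7 and 8.32), and the fifth, on chromosome 4 from 593434 to 593807 (9.03 and 7.46), had a peak in 8 of the 9 other input lists. The fourth, on chromosome 5 from 14663593 to 14663912 (5.84 and 4.96), had peaks in 8 of these 9 lists and in neither salt list. In all, 28 of the 1738 input-only regions had a peak in both salt lists. So did 9 of 279 CK(salt)-only, 2587 of 39758 mixed and 21669 of 30299 shared regions. The input-only share was thus the lowest of the 4 classes. Within the salt experiment the 28 regions had peaks under salt and none in the controls, while all 4 input libraries without salt held them.

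The classes were spread over all 12 chromosomes. Regions of all 6 lists made up 40.4% of the regions on chromosome 11 and 43.5% on chromosome 7, the lowest and highest share, against 42.0% in all. CK(salt)-only regions ranged from 0.294% of the regions on chromosome 1 (27 regions, 95% exact binomial interval 0.194 to 0.427%) to 0.634% on chromosome 11 (32 regions, 0.434 to 0.894%), where the interval lies above the 0.387% of all regions. Input-only regions ranged from 1.98% on chromosome 8 (104 regions, 1.62 to 2.39%) to 2.70% on chromosome 3 (215 regions, 2.35 to 3.08%), against 2.41% in all. The interval of chromosome 8 lies just below the 2.41%. In the shared class the intervals of chromosomes 1 and 11 lie below the share in all regions, and that of chromosome 7 above it. These intervals cover counting error only and treat regions as independent. They are not adjusted for the choice of the extremes among 12 chromosomes.

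Across libraries, the share of peaks on a chromosome hardly differed. The largest mean difference was on chromosome 1, with 12.5 ± 0.15% of the CK(salt) peaks (SD, n = 2) and 12.7 ± 0.0768% of the input peaks (SD, n = 4). The groups did not overlap on 4 of the 12 chromosomes (33.3%). CK(salt) was lower on chromosomes 1 and 3 and higher on chromosomes 7 and 11. The smallest adjusted p was 0.4 (exact permutation tests over the 12 chromosomes), and 0 chromosomes had an unadjusted p under 0.05, which this design cannot reach. On chromosome 3 the share was 10.98 ± 0.0653% in CK(salt) (SD, n = 2) and 11.1 ± 0.0337% in the input libraries (SD, n = 4).

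Placement along the arms was nearly alike, and the CK(salt) peaks lay slightly nearer the centromeres by a margin the design cannot carry past the threshold. Distances were measured from the middle of a peak to the approximate middle of its centromere, taken from general knowledge of the Nipponbare reference. The emptiest window of 2 Mb in the 8 µg lists lay 0.2 to 1.8 Mb from these positions on chromosomes 1, 2, 3, 5, 10 and 11. It lay 2.3 to 5.6 Mb away on chromosomes 4, 6, 7, 8, 9 and 12. All 6 lists thinned out towards the positions used, from 117 to 174 peaks per Mb beyond 10 Mb to 74.7 to 107 peaks per Mb within 1 Mb. The median distance was 8.70 and 8.59 Mb in CK(salt), 8.79 and 8.74 Mb at 5 µg and 8.71 and 8.78 Mb at 3 µg. Both CK(salt) libraries lay below all 4 input libraries, by 0.111 Mb in the mean (exact permutation p = 0.133, the smallest possible). Peaks beyond 10 Mb made up 41.6% and 41.0% in CK(salt), against 42.1% and 42.0% at 5 µg and 41.7% and 42.2% at 3 µg. The adjusted p was 0.167 for this bin and for each of the 3 bins up to 5 Mb, where CK(salt) was higher, and 0.4 for 5 to 10 Mb. The salt lists had 40.2% each beyond 10 Mb, and the other input lists ran from 41.9% in 1 µg replicate 1 to 44.3% in 250 ng replicate 1, apart from 40.2% at 100 ng.

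The share of shared regions was higher near the centromeres than far from them. Regions of all 6 lists made up 43.8% of the regions within 2 Mb of a centromere (interval 42.7 to 45.0%) and 40.9% beyond 10 Mb (40.4 to 41.5%). Input-only regions made up 2.18% near (1.86 to 2.55%) and 2.65% far (2.47 to 2.83%), so that their intervals overlapped, and CK(salt)-only regions 0.389% near (0.259 to 0.562%) and 0.381% far (0.315 to 0.457%). The order of the CK(salt)-only shares turned, to 0.348% near and 0.368% far, with centromere positions 0.5 Mb higher, and to 0.373% and 0.390% with positions read from the emptiest window. The shared regions kept their order, at 44.2% near and 40.9% far with positions 0.5 Mb higher and 44.0% and 41.0% with positions 0.5 Mb lower. With the emptiest window the gap shrank, to 42.8% and 41.1%. The intervals treat regions as independent, and these shares were not tested between libraries. The median distance to the centromere was 8.61 Mb for the shared, 8.94 Mb for the CK(salt)-only and 9.50 Mb for the input-only regions.

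Peak density was also compared in windows of 1 Mb. Of 378 windows, 0 (0%) passed an adjusted p of 0.05 in limma, and 48 (12.7%) had an unadjusted p under 0.05. The groups did not overlap in 88 windows (23.3%), with CK(salt) higher in 51 (13.5%) and lower in 37 (9.79%). Within 2 Mb of a centromere CK(salt) was the higher group in 8 of 48 windows and the lower in 0. From 2 to 5 Mb it was higher in 19 of 70 windows and lower in 3, and from 5 to 10 Mb higher in 16 of 113 and lower in 7. Beyond 10 Mb it was higher in 8 of 147 and lower in 27. The window with the lowest p was on chromosome 7 from 9 to 10 Mb, with 2.28 and 2.39 of every 1000 peaks in CK(salt), 2.16 and 2.05 at 5 µg and 2.11 and 2.11 at 3 µg (log2 difference 0.15, SE 0.042, limma adjusted p = 0.319). Next came chromosome 4 from 2 to 3 Mb (0.14) and chromosome 9 from 8 to 9 Mb (0.15). The lowest p on the other side belonged to chromosome 3 from 4 to 5 Mb (-0.13), chromosome 4 from 4 to 5 Mb (-0.13) and chromosome 1 from 37 to 38 Mb (-0.13), also at an adjusted p of 0.319. With lists of equal length 2 windows passed, among them that on chromosome 4 from 2 to 3 Mb (log2 difference 0.21, limma adjusted p = 0.0145).

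Where both experiments called a region, no width differed past the threshold. The median of the covered bases in the 30299 shared regions was 550 and 466 bp in CK(salt), 491 and 580 bp at 5 µg, and 509 and 553 bp at 3 µg, and each library was centred on its median. In limma 0 regions (0%) passed an adjusted p of 0.05, and 2700 (8.91%) had an unadjusted p under 0.05. The groups did not overlap in 6115 regions (20.2%), with CK(salt) wider in 3778 (12.5%) and narrower in 2337 (7.71%). This balance depended on the centring: without it CK(salt) was wider in 1847 and narrower in 3199 regions, and the median log2 difference was -0.023 in place of 0.049. The smallest adjusted p was 0.0521, and other settings brought some regions past the threshold, with 8 at a −log10 q of at least 5, 32 after quantile normalization, 42 among regions of 1 peak, 59 with lists of equal length and 87 by the widest single peak. None passed in any of the fits that left out a library, nor with the 5 µg or the 3 µg libraries alone.

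Among regions narrower in CK(salt), the lowest p belonged to that on chromosome 5 from 18193863 to 18194856, which covered 244 and 223 bp in CK(salt), 700 and 918 bp at 5 µg and 870 and 820 bp at 3 µg (log2 difference -1.75, SE 0.12, limma adjusted p = 0.0521). The groups were far apart there. The next was on chromosome 5 from 20202665 to 20203522, at 295 and 246 bp against 686 to 841 bp (-1.46), and the third on chromosome 2 from 15310321 to 15311096, at 237 and 238 bp against 717 to 759 bp (-1.57). At these 3 places the other input lists from 8 µg to 250 ng were wide, and the 100 ng and salt lists were narrower or had no peak. The first covered 621 to 977 bp in those 8 input lists, 237 bp at 100 ng, and 224 and 220 bp in the salt lists. The second covered 670 to 858 bp in those 8 lists, 181 bp at 100 ng, and 484 and 0 bp in the salt lists, where the value of replicate 1 lay above both CK(salt) values. The third covered 598 to 751 bp, 0 bp at 100 ng, and 228 and 205 bp in the salt lists. At the 3 regions that were wider in CK(salt) the other lists were not so divided. The region on chromosome 3 from 17302152 to 17302989 covered 838 and 728 bp in CK(salt) and 239 to 323 bp in the 4 input lists (log2 difference 1.59, SE 0.12, limma adjusted p = 0.0521), but from 242 to 807 bp in the other 8 input lists and 0 and 433 bp in the salt lists. Those on chromosome 11 from 5265333 to 5266210 (1.66) and chromosome 8 from 19169842 to 19170548 (1.29) were likewise narrow in some of the other input lists and wide in others.

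The lists that did not define the classes held them at different rates. Input-only regions had a peak in 97.5% and 92.6% of cases in the 8 µg lists, 86.8% and 74.3% at 1 µg, 74.9% and 69.4% at 500 ng, and 66.9% and 69.6% at 250 ng. The salt lists held 5.93% and 16.9% of them, and the 100 ng list 1.38%. CK(salt)-only regions had a peak in 55.6% and 60.2% of cases at 8 µg, 34.8% and 15.1% at 1 µg, 23 and 36 of the 279 regions at 500 ng, and 7.89% and 8.24% at 250 ng. In the salt lists the shares were 12.5% and 25.1%, and mixed regions had 16.0% and 19.6% there. The regions of all 6 lists were held at 80.8% and 83.0% by the salt lists and at 71.3% to 99.9% by the 8 input lists of 250 ng and more. Background coverage was 6.74 and 3.88 in the salt lists and 4.82 to 6.1 in the 4 lists at 500 and 250 ng, so salt replicate 1 was deeper than each of these 4. The salt lists were shorter, with 32861 and 35907 peaks, and median summit pileups of 39 and 27 fragments, against 43744 to 46310 peaks and pileups of 31 to 37 at 500 and 250 ng. The part of depth and list length in these shares was not tested.

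In each list, the share of input-only regions minus that of CK(salt)-only regions sets the classes against each other within that list. It was -6.62 and -8.23 percentage points in the salt lists, 32.4 to 66.7 in the 8 input lists of 250 ng and more, and -0.0528 at 100 ng. Both salt lists lay below all 9 input lists (exact permutation p = 0.0364, the smallest possible, adjusted p = 0.145 over 4 quantities). This comparison was chosen after the shares had been seen. The classes were picked by presence and absence in lists of the same experiments, so the p-value is not separate support for them. The salt lists also differ from the input lists by the salt in their titles, and the comparison cannot tell experiment from treatment. With lists of equal length, where the classes had like numbers, the difference was -29.1 and -15.0 points in the salt lists and 9.81 to 68.1 in the 8 input lists. Without CK(salt) replicate 1 it was 11.96 to 18.1 in the salt lists and 42.8 to 63.1 in the 8 input lists, and without CK(salt) replicate 2 it was 1.47 to 14.5 and 44.4 to 73.5. The 100 ng list lay below both salt lists in both cases, at 3.80 and 1.24 points, and the exact permutation p was 0.109 each time.

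**Figure D4:**
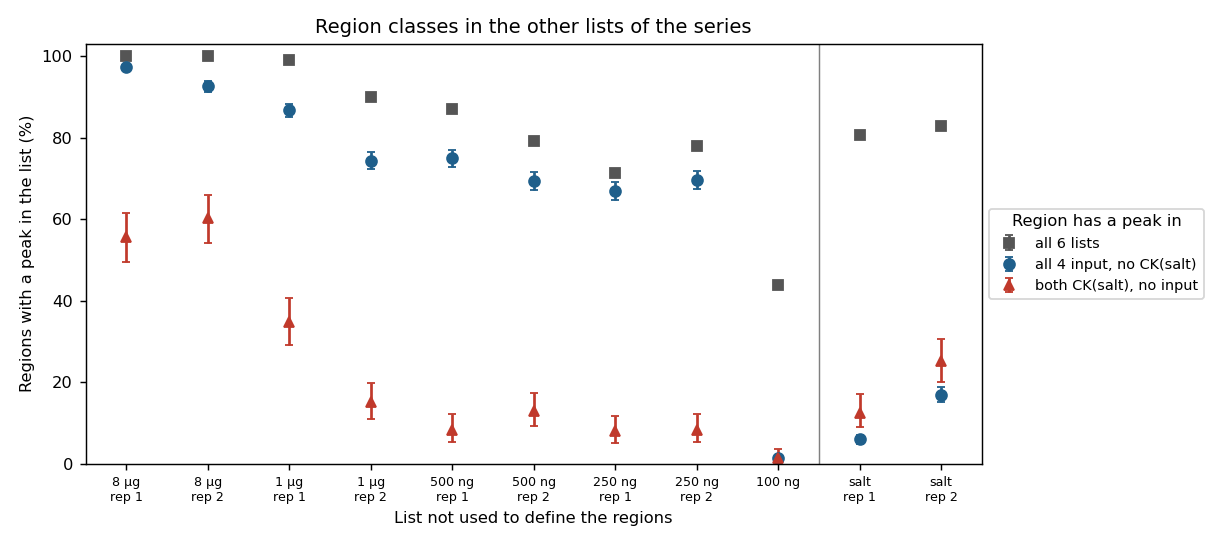
Share of the regions of each class that had a peak in lists not used to define the classes, with exact 95% binomial intervals that cover counting error only. Input lists are left of the line and salt lists right of it. Input-only regions (circles) stay at 66.9% or more down to 250 ng. They lie at 1.38% in the 100 ng list and at 5.93% and 16.9% in the salt lists.

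Part of the input-only regions recurred in the other input lists and not in the salt lists, counted with a threshold chosen after the values were seen. Of the 1738 input-only regions, 763 had a peak in 8 or more of the 9 other input lists, and 578 of these had none in either salt list (33.3% of the class). The same rule held for 1124 of 30299 shared regions (3.71%) and 2543 of 39758 mixed regions. Absence from both salt lists alone was found for 78.8% of the input-only and 70.8% of the mixed regions. The 578 input-only regions lay on all 12 chromosomes, from 29 on chromosome 8 to 81 on chromosome 1, with a median width of 459 bp. A share of 46.7% of them lay beyond 10 Mb from a centromere and 7.09% within 2 Mb, against 42.2% and 9.98% of all regions. The whole input-only class had 46.4% beyond 10 Mb, 3.86% within 1 Mb and 5.18% from 1 to 2 Mb. The share beyond 10 Mb was thus nearly that of the class. Of the 279 CK(salt)-only regions, 32 (11.5%) had no peak in any other input list. The same was found for 3427 of 39758 mixed, 1 of 30299 shared and 0 of 1738 input-only regions. The median width of the 32 was 311 bp, 16 lay beyond 10 Mb and 2 within 2 Mb, and 7 had a peak in a salt list.

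Among the lowest-scored regions, those without a CK(salt) peak were more frequent than those with one in 5 other input lists, 1 µg replicate 2 and the 500 and 250 ng lists, and less frequent in the other 4, 100 ng among them. The regions of all 4 input lists were divided by their median score percentile in those lists and by the number of CK(salt) lists that held them, a division also chosen after the data had been seen. In the lowest class, up to the 20th percentile, regions absent from CK(salt) had a peak in 68.9% to 73.0% of cases in 1 µg replicate 2 and the 500 and 250 ng lists, against 36.3% to 50.4% for regions present in both CK(salt) lists. In the 8 µg lists the order was the opposite, with 96.1% against 99.4% in replicate 1 and 87.6% against 99.6% in replicate 2, and 1 µg replicate 1 had 79.6% against 87.3%. The 100 ng list had 1.14% against 6.91%. In the salt lists the shares were 5.26% against 46.6% and 10.8% against 52.1%. From the 20th to the 40th percentile the excess in those 5 lists was 4.75 to 18.6 points. It was -7.55 to 6.13 points from the 40th to the 60th, and -28.9 to -10.3 points above the 60th percentile. In the 100 ng list the difference was -10.8, -19.9 and -54.9 points in these 3 classes. The salt lists had a deficit in every class, from -41.3 points in the lowest to -83.5 and -54.8 points in the highest. The lowest class set 437 regions absent from CK(salt) against 695 present in both lists, and the highest 116 against 19198. Scores were not matched within a class. The regions were picked by absence from lists of the same experiment as the salt lists, so the deficit is not separate support for the classes.

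**Figure D5:**
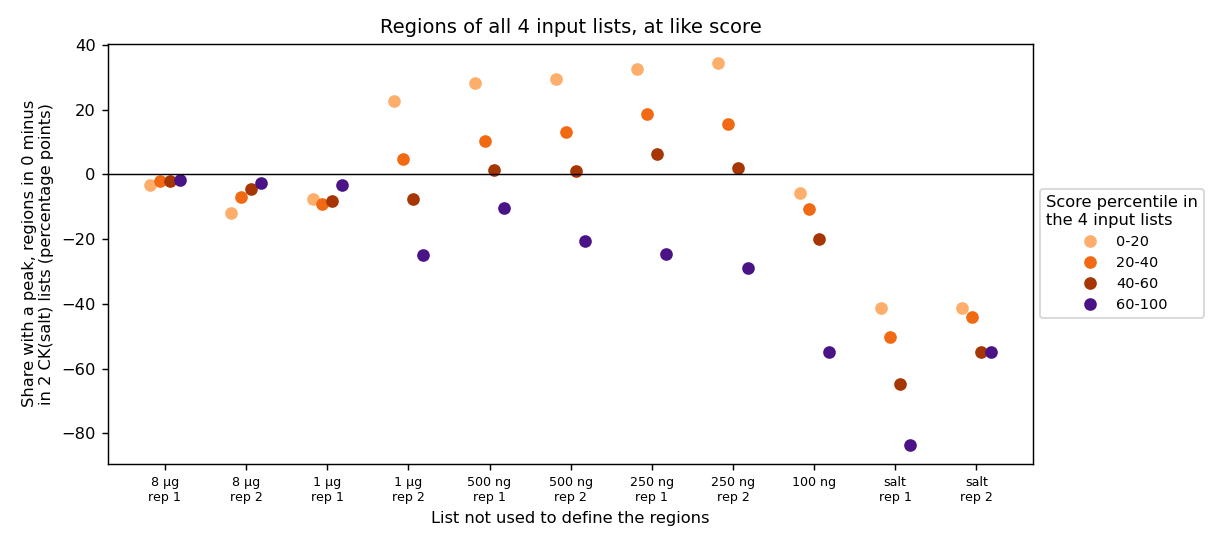
Difference in the share of regions with a peak, between regions in 0 and in 2 CK(salt) lists, for regions of all 4 input lists in 4 classes of score percentile (colours), in percentage points for each list not used to define them. In the lowest class the 5 lists from 1 µg replicate 2 to 250 ng lie between 22.6 and 34.4 points, and both salt lists lie at -41.3 points or lower.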

How the data were processed

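ISRH-seq of wild-type rice seedlings was measured in 18 libraries, of which 6 are compared here and the others were looked up. The submitters' processing notes name Bowtie2 and MACS2 2.1.4. Each library has its own deposited narrowPeak list. Its columns, as deposited, hold a score (10 times the −log10 q-value, decimals dropped), a fold (ratio) of the summit over local background, and p-value and q-value on the −log10 scale. Starts were made 1-based. The sources used here do not give the genome build, the control or the handling of duplicates. The gene table at hand reaches 27.5 Mb on chromosome 9 and the peaks 22.9 Mb, so genes were not joined and no sequence was read.

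Background coverage was solved from fold and p-value, with the caller's fold as (pileup + 1) / (background + 1) and p as a Poisson tail. It was solved for 100% of the summits of the 6 lists within 0.001 on the −log10 scale. Regions were made of peaks sharing at least 1 bp. Library values were compared by two-sided exact permutation tests with Benjamini-Hochberg adjustment. Region widths (log2 covered bases, centred) and window densities (log2 of peaks plus 1 over the list's total, windows with a mean of at least 10 peaks) were tested with limma 3.58.1 in R 4.3.3, and both scripts were tested on simulated data. Other values came from Python 3.11.15 and SciPy 1.17.1.

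Replicate numbers did not pair CK(salt) with the input libraries, but they did go with a shared deviation among the input libraries. The differences between replicates 1 and 2 in shared widths correlated across regions at 0.37 between 5 and 3 µg, and at -0.17 and -0.18 between CK(salt) and these. The tests take the 4 input libraries as independent, so their p-values may be too small. Named regions are the 10 of each class with the highest lowest-of-all percentile, and, since none passed in either fit, the 3 regions or windows with the lowest p in each direction. Alternatives were a stricter threshold, lists of equal length, 50% reciprocal overlap, the 5 µg or 3 µg libraries alone, other centromere positions, windows and scalings, a replicate block and each library left out. Groups, regions and tests were chosen with earlier results of these data known.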

Additional observations from a re-analysis of the deposited data

How the results depend on the processing

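Of 202 values of the main results under alternatives, 164 stayed on their side of the threshold or, for counts and levels, near the main value, 34 moved, 2 turned in direction and 2 no longer had an unadjusted p under 0.05. For library measures, chromosome shares and centromere distances of peaks, the exact permutation tests cannot reach 0.05. Their side of the threshold was therefore fixed in advance, and the 164 include them. The difference in median width turned to -11.5 bp with lists of equal length, and that in covered length ran from -0.39 to 0.060 (log2) when 1 library was left out, the latter without CK(salt) replicate 2; the cause was not tested. Equal lengths leave no difference in peak number. CK(salt)-only regions numbered 817 with lists of equal length, 748 with the 5 µg and 638 with the 3 µg libraries only, 552 at 50% reciprocal overlap, and 344 to 2509 with 1 library left out, which asks for fewer lists. Input-only regions numbered 920, 3522 and 3224 in the first 3 of these settings and 2146 to 5570 with 1 library left out. The shared regions were 43.95%, 47.7% and 47.0%, then 31.6% at reciprocal overlap, and 43.9% to 47.7% with 1 library left out. Chromosomes whose groups did not overlap numbered 4 to 8 with 1 library left out. In limma, widths of 32 regions passed after quantile normalization, 87 by the widest single peak, 42 among regions of 1 peak, 8 with the stricter −log10 q of 5, and 59 with lists of equal length. In window density, 2 passed with lists of equal length and 0 to 1 with 1 library left out (1 without CK(salt) replicate 1 and 1 without replicate 2). The difference of salt and input lists in the class shares ran from -54.9 to -32.3 points with 1 library left out. A replicate block left the log2 differences at -0.22 for peak number and -0.16 for covered length and that in median width at 19 bp (exact permutation p = 0.667, 0.667 and 0.444). In limma 0 regions and 0 windows passed with the block. No call changed, but the smallest possible exact permutation p with the block was 0.222, so only the limma fits could have changed. Centromere positions moved by 0.5 Mb, or read from the emptiest window, turned no difference between the groups of libraries, but turned the near and far order of CK(salt)-only shares under 2 of 3 positions. The emptiest window lay up to 5.6 Mb from the position used. The 2 CK(salt) libraries, the deepest and the shallowest, limit every comparison.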
